A study of Mus musculus with 7 samples.

Results

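The genes described here are 8 genes that fibroblasts of the embryonic meninges are known for: Dcn, Lum, Islr, Fbln1, Aldh1a2, Crabp2, Ptgds and Tbx18. They were taken by symbol from the authors' gene table, in which each has a single row, so they are 8 of 23358 rows. The table compares cells sorted from the brains of C57Bl6 mouse embryos at E14.5 and labelled endothelial. There were 4 libraries labelled as lacking Tgfbr2, the type II receptor for transforming growth factor β (TGF-β), and 3 control libraries. In both groups the cells were sorted for TdTomato, a red fluorescent reporter that the Ai14 allele switches on after Cre recombination, and each library was made from 2000 to 5000 cells. The sources used here do not give the Cre driver, the floxed exons, the Cre status of the controls, or whether libraries came from separate embryos.

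The meninges are the 3 membranes around the brain, the pia, the arachnoid and the dura, and their fibroblasts arise from neural crest and mesoderm. These cells lay down a collagen matrix rich in small proteoglycans, hold the pial basement membrane against the brain surface and make retinoic acid, a signal for the growing cortex and its vessels. Some fibroblasts also follow larger vessels into the brain.

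For each gene the authors gave 1 level per group in FPKM, which counts fragments scaled to transcript length and to library size. Values of single libraries were not analysed here. Their spread and depth were therefore unknown, and error enters through the authors' p-values and q-values alone. Such p-values measure how these libraries varied, in part perhaps for technical reasons. In these bulk values, more cells of a type and more RNA per cell cannot be told apart. Differences were counted among 13356 genes that the authors tested and that reached 1 FPKM in at least 1 group. A gene was called higher or lower at q under 0.05. By that rule the authors' deposited table called 23.9% of these genes higher with Tgfbr2 deficiency and called 14.7% lower. Tgfbr2 itself stood at 65.4 FPKM in the Tgfbr2-deficient group and 91.1 FPKM in the control group, at q = 0.0953 in the authors' deposited table, which did not pass. Of 17 tested macrophage markers 16 were lower and 0 higher, and their summed level was 6231 FPKM in the Tgfbr2-deficient group and 13693 FPKM in the control group. Of 16 endothelial markers 15 were higher and 0 lower, with 7 of the 16 counted through the Tgfbr2-deficient group alone and 8 of 9 higher at 1 FPKM in both groups. Their sums were 426 FPKM in the Tgfbr2-deficient group and 84.4 FPKM in the control group. The sorted cells therefore carried more macrophage than endothelial marker RNA in both groups, against their label.

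All 8 meningeal fibroblast genes rose with Tgfbr2 deficiency at q under 0.05 in the authors' deposited table, where 23.9% of tested genes were called higher. Their summed level was 235 FPKM in the Tgfbr2-deficient group and 35.9 FPKM in the control group, a ratio of 6.56. The ratio of single genes ran between 2.39 for Crabp2 and 18.8 for Ptgds. On the log2(FPKM + 1) scale, which allows for values near 0 and understates the change of low genes, the median fold of the 8 genes was 2.07, beside −0.08 over all tested genes. Of the 8 genes, 7 had at least 1 FPKM in both groups, and Tbx18 passed the minimum through the Tgfbr2-deficient group alone. For 7 of the 8 genes p was 5e-05 in the authors' deposited table, the smallest value it holds and one shared by 2425 genes with a test, so the genes could not be ranked by p.

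**Figure D1:**
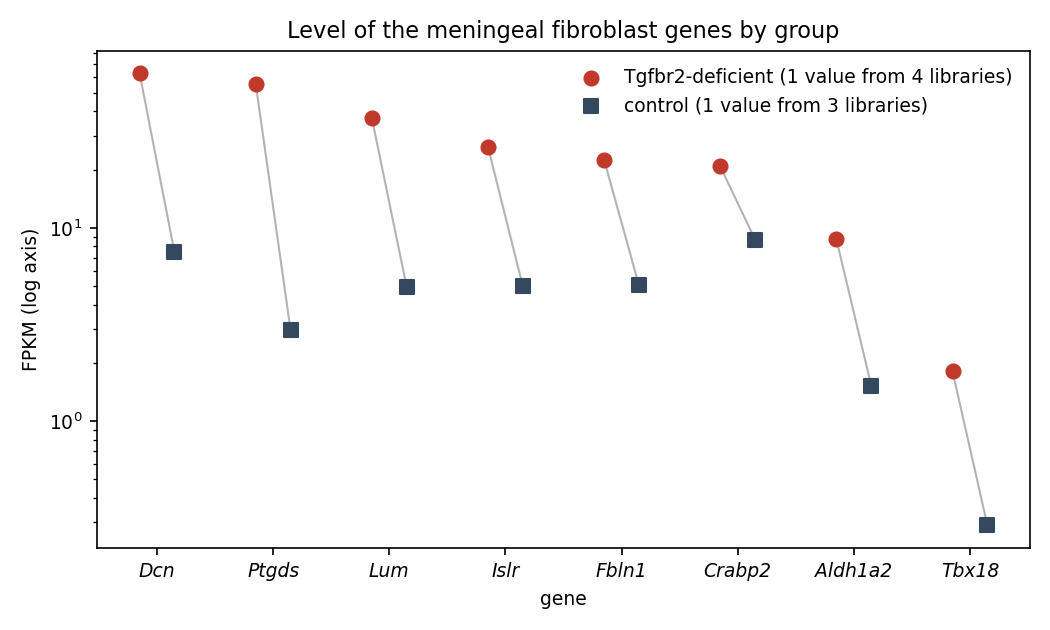
FPKM of the 8 genes in the Tgfbr2-deficient group (circles, left) and the control group (squares, right), 1 value per group, on a log axis, ordered by the level in the Tgfbr2-deficient group. Each circle lies above its square, with the widest gap for Ptgds (55.6 and 2.95 FPKM) and the narrowest for Crabp2 (20.8 and 8.68 FPKM).

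The proteoglycans of the collagen matrix were the most abundant members in the Tgfbr2-deficient group together with Ptgds. Decorin, encoded by Dcn, coats collagen fibrils, limits their width and can bind TGF-β. It stood at 63.0 FPKM in the Tgfbr2-deficient group, against 7.48 FPKM in the control group, an 8.42-fold difference at q = 0.00029 in the authors' deposited table. Lumican, encoded by Lum, also spaces collagen fibrils and is best known from the cornea. Lum stood at 36.9 FPKM in the Tgfbr2-deficient group, against 4.93 FPKM in the control group, a 7.49-fold difference at q = 0.00029 in the authors' deposited table. Both groups thus held Dcn above Lum, and the folds of the pair lay close together, at 2.92 and 2.68 on the log2(FPKM + 1) scale.

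Dcn and Lum are neighbours on chromosome 10, where the deposited loci, in the mm10 build, run from 97479500 to 97518162 for Dcn and from 97565501 to 97572703 for Lum, both on the plus strand in GENCODE M21. Kera and Epyc, which encode the related proteoglycans keratocan and epiphycan of cornea and cartilage, follow on the same strand, with annotated starts at 97606879 and 97644068. Kera had 1.498 FPKM in the Tgfbr2-deficient group and 0.142 FPKM in the control group, at q = 0.0032 in the authors' deposited table. Epyc had 1.11 FPKM in the Tgfbr2-deficient group and 0.172 FPKM in the control group, at q = 0.00482 in the authors' deposited table. Kera and Epyc thus stood far below Dcn and Lum in both groups, while all 4 genes were called higher. A second run of related genes lies on chromosome 13, in the order Ecm2, Aspn, Omd and Ogn. The deposited table gives these 4 genes 1 shared locus, so how reads were split between them is uncertain. There Ogn, which encodes osteoglycin, had 15.1 FPKM in the Tgfbr2-deficient group and 1.61 FPKM in the control group, at q = 0.00029 in the authors' deposited table. Aspn, which encodes asporin, had 4.74 FPKM in the Tgfbr2-deficient group and 0.380 FPKM in the control group, at q = 0.0213 in the authors' deposited table. Ecm2 and Omd stayed under 1 FPKM in both groups and were not counted, at 0.884 and 0.473 FPKM with Tgfbr2 deficiency and 0.0964 and 0.105 FPKM in the control group.

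Over the whole family of small leucine-rich proteoglycans and their relatives, 11 of 12 tested genes rose, where 23.9% of all tested genes were called higher. The other 6 listed genes were not tested or stayed under 1 FPKM. Of the 12, 5 passed the minimum through the Tgfbr2-deficient group alone, and the 7 at 1 FPKM in both groups were all called higher. Bgn, which encodes biglycan, the closest relative of decorin, had 21.1 FPKM in the Tgfbr2-deficient group and 2.44 FPKM in the control group, at q = 0.00029 in the authors' deposited table. Chad, a cartilage member, was the one that did not pass, at 2.75 FPKM in the Tgfbr2-deficient group and 0.232 FPKM in the control group, at q = 0.234 in the authors' deposited table. The median fold of the family was 1.90 on the log2(FPKM + 1) scale. It includes Dcn, Lum and Islr, so it is not separate from them.

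Islr encodes meflin, a surface protein with leucine-rich repeats and an immunoglobulin domain that marks mesenchymal stromal cells. It stood at 26.2 FPKM in the Tgfbr2-deficient group, against 4.98 FPKM in the control group, a 5.26-fold difference at q = 0.00029 in the authors' deposited table. Its deposited locus lies on chromosome 9 from 58156264 to 58159221, minus strand. GENCODE M21 extends Islr to 58204306 through a transcript that shares exons with its relative Islr2, which neural cells express. Islr2 has a row of its own, at 14.1 FPKM in the Tgfbr2-deficient group and 5.11 FPKM in the control group, and the deposited locus of Islr ends before it.

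Fbln1 encodes fibulin-1, a calcium-binding glycoprotein of basement membranes and elastic fibres. It stood at 22.5 FPKM in the Tgfbr2-deficient group, against 5.03 FPKM in the control group, a 4.46-fold difference at q = 0.00029 in the authors' deposited table. The deposited locus runs on chromosome 15 from 85206008 to 85286294, plus strand. Among fibulins and elastic fibre genes 13 of 16 tested genes rose and 0 fell, where 23.9% of all tested genes were called higher. At 1 FPKM in both groups 10 of 12 rose. The median fold of the 16 was 2.04 on the log2(FPKM + 1) scale. Lox, the oxidase that cross-links elastin and collagen, stood at 33.3 FPKM in the Tgfbr2-deficient group and 2.36 FPKM in the control group, Eln (elastin) at 29.8 and 3.65 FPKM, and Fbln2 (fibulin-2) at 29.9 and 4.19 FPKM, in that group order, each with q = 0.00029 in the authors' deposited table. Emilin1, an elastic fibre glycoprotein, did not pass, at 57.1 FPKM in the Tgfbr2-deficient group and 60.5 FPKM in the control group.

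The retinoid members carried lower folds than the matrix proteoglycans. Aldh1a2 encodes the retinaldehyde dehydrogenase that makes most retinoic acid in the embryo and marks the arachnoid side of the meninges. It stood at 8.71 FPKM in the Tgfbr2-deficient group, against 1.52 FPKM in the control group, a 5.71-fold difference at q = 0.00029 in the authors' deposited table. Crabp2 encodes a cytosolic protein that carries retinoic acid to its nuclear receptors. It stood at 20.8 FPKM in the Tgfbr2-deficient group, against 8.68 FPKM in the control group, a 2.39-fold difference at q = 0.000544 in the authors' deposited table. Crabp2 had the lowest ratio of the 8 genes and the highest level of them in the control group. The deposited loci run on chromosome 9 from 71215789 to 71296243 for Aldh1a2 and on chromosome 3 from 87948693 to 87953372 for Crabp2, both on the plus strand.

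In the retinoic acid pathway as a whole, 11 of 19 tested genes rose and 1 fell, or 7 of 14 and 1 among those at 1 FPKM in both groups. Over all tested genes 23.9% were called higher and 14.7% lower. Stra6, the membrane receptor for retinol-binding protein, stood at 7.64 FPKM in the Tgfbr2-deficient group and 1.45 FPKM in the control group, at q = 0.00029 in the authors' deposited table. Rarb, a retinoic acid receptor, was named after its values were seen. It had 2.90 FPKM in the Tgfbr2-deficient group and 0.674 FPKM in the control group, at q = 0.000544 in the authors' deposited table. Rarb thus passed the minimum of 1 FPKM through the Tgfbr2-deficient group alone. The gene that fell was Dhrs3, which turns retinaldehyde back into retinol, at 56.4 FPKM in the Tgfbr2-deficient group and 98.6 FPKM in the control group, at q = 0.00102 in the authors' deposited table. With log2 folds centred on ribosomal protein genes Dhrs3 was at −0.25, against −0.80 uncentred. That centring adds 0.54, and 24 of 48 tested ribosomal protein genes were themselves called lower. Centring on the median of all tested genes adds 0.08. Rxrb, a partner receptor present in many cell types, did not pass, at 36.5 FPKM in the Tgfbr2-deficient group and 44.8 FPKM in the control group. The pathway median was 0.73 on the log2(FPKM + 1) scale, against 2.07 for the 8 genes, and the difference was not tested. The macrophage markers, 16 of 17 of which were lower, moved with Dhrs3, and their part in its fall was not tested.

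Ptgds had the largest rise of the 8 genes. It encodes lipocalin-type prostaglandin D synthase, an enzyme and retinoid carrier of arachnoid cells and choroid plexus. It stood at 55.6 FPKM in the Tgfbr2-deficient group, against 2.95 FPKM in the control group, an 18.8-fold difference at q = 0.00029 in the authors' deposited table. Of the 13356 tested genes, 26 had a larger log2(FPKM + 1) fold. Its level was second of the 8 genes in the Tgfbr2-deficient group and sixth in the control group. The deposited locus lies on chromosome 2 from 25466712 to 25469749, minus strand. Choroid plexus markers, 8 of 9 of which were higher and 0 lower, moved with Ptgds, at a summed level of 149.6 FPKM in the Tgfbr2-deficient group and 38.6 FPKM in the control group, with no marker at 0. Of the 9, 5 were counted through the Tgfbr2-deficient group alone, and 3 of 4 were higher at 1 FPKM in both groups. Over all tested genes 23.9% were called higher, and the part of choroid plexus cells in the rise of Ptgds was not tested.

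The 2 enzymes that make prostaglandin D stood in opposite directions. Hpgds, the synthase of mast cells and macrophages, was at 32.0 FPKM in the Tgfbr2-deficient group and 85.8 FPKM in the control group, at q = 0.00029 in the authors' deposited table. Hpgd, which inactivates prostaglandins, was also lower, at 28.5 FPKM in the Tgfbr2-deficient group and 70.2 FPKM in the control group, at q = 0.00029 in the authors' deposited table. Ptgs1, the cyclooxygenase that supplies their substrate, was at 55.2 FPKM in the Tgfbr2-deficient group and 88.2 FPKM in the control group, at q = 0.00732 in the authors' deposited table. Tbxas1, the thromboxane synthase, was at 40.7 FPKM in the Tgfbr2-deficient group and 60.5 FPKM in the control group, at q = 0.0267 in the authors' deposited table. With log2 folds centred on ribosomal protein genes, which adds 0.54, Ptgs1 was at −0.12 and Tbxas1 at −0.02, against −0.67 and −0.56 uncentred. Centring on the median of all tested genes adds only 0.08. In all, 4 of 15 tested prostaglandin genes rose and 4 fell, where 23.9% of all tested genes were called higher and 14.7% lower. At 1 FPKM in both groups 2 of 12 were higher and 4 lower, since Ptges and Ptgir were under 1 FPKM in the control group. Besides Ptgds, the higher genes were Ptgis, Ptges and Ptgir, the synthases of prostacyclin and prostaglandin E and the prostacyclin receptor, named after their values were seen, at 3.66, 1.71 and 1.44 FPKM with Tgfbr2 deficiency, against 1.01, 0.274 and 0.200 FPKM in the control group. The 4 genes that fell did so beside the macrophage markers, 16 of 17 of which were lower and none at 0 in either group. Of the mast cell markers 5 of 8 were higher and 0 lower, at a summed level of 373 FPKM in the Tgfbr2-deficient group and 8.06 FPKM in the control group, and 4 of 4 were higher at 1 FPKM in both groups. Ptges3, a cochaperone also known as a prostaglandin E synthase, did not pass, at 91.7 FPKM with Tgfbr2 deficiency, against 115 FPKM in the control group. The part of either cell type in these values was not tested.

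**Figure D2:**
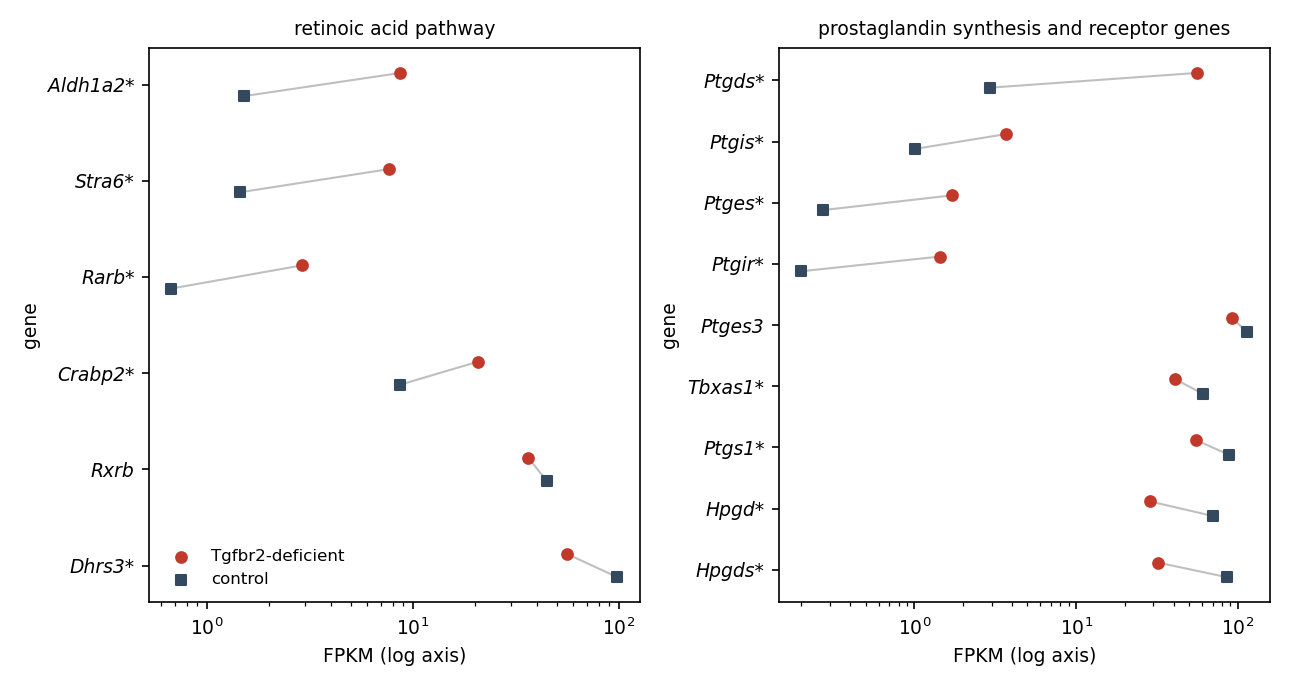
FPKM on a log axis of the genes described of the retinoic acid pathway (left panel) and of prostaglandin synthesis and receptors (right panel) in the Tgfbr2-deficient group (circles) and the control group (squares), ordered by fold. Asterisks mark genes with a deposited q under 0.05. Ptgds tops its panel with 55.6 and 2.95 FPKM, and Hpgds is at its foot with 32.0 and 85.8 FPKM.

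Tbx18, a T-box transcription factor of mesenchyme that also marks pericytes and smooth muscle, was the least abundant member in both groups. It stood at 1.81 FPKM in the Tgfbr2-deficient group, against 0.289 FPKM in the control group, a 6.26-fold difference at q = 0.00029 in the authors' deposited table. Its log2(FPKM + 1) fold of 1.12 was the smallest of the 8, while its deposited log2 fold with nothing added was 2.65, so its place in the order depends on the scale. Among the 13356 tested genes, 1710 had a larger log2(FPKM + 1) fold than Tbx18 and 1593 a larger one than Crabp2, while the number was 420 for Aldh1a2, 408 for Fbln1, 282 for Islr, 137 for Lum and 100 for Dcn. The deposited locus runs on chromosome 9 from 87702800 to 87731260, minus strand. GENCODE M21 annotates exons of D030062O11Rik on the opposite strand over it, and the library kits do not mark the strand, so reads from the 2 genes cannot be told apart. Mural cell markers, 9 of 13 of which were higher and 0 lower, moved with Tbx18, at a summed level of 117.6 FPKM in the Tgfbr2-deficient group and 18.8 FPKM in the control group, with no marker at 0. Of the 13, 5 were counted through the Tgfbr2-deficient group alone, and 5 of 8 were higher at 1 FPKM in both groups. Their part in the rise of Tbx18 was not tested. Of 9 tested T-box genes 8 rose, where 23.9% of all tested genes were called higher. Of these 9, 5 had passed the minimum through the Tgfbr2-deficient group alone. Tbx1, a factor of pharyngeal and cranial mesoderm, was at 6.04 FPKM in the Tgfbr2-deficient group and 1.16 FPKM in the control group, Tbr1, a factor of cortical neurons, at 12.6 and 3.20 FPKM, and Tbx3 at 3.07 and 0.460 FPKM, in that group order, each with q = 0.00029 in the authors' deposited table. Mga, which joins a T-box domain to a MAX-binding one, did not pass, at 3.95 FPKM in the Tgfbr2-deficient group and 3.22 FPKM in the control group.

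**Figure D3:**
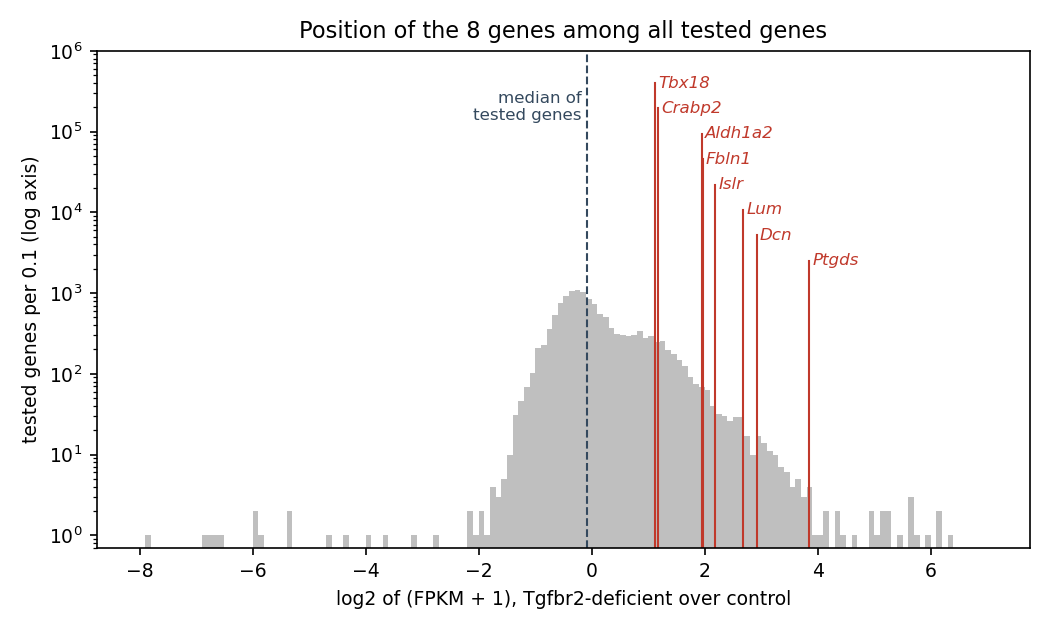
Histogram of the log2 fold of (FPKM + 1), Tgfbr2-deficient over control, for 13356 tested genes in steps of 0.1 on a log count axis, with a labelled line for each of the 8 genes. Their folds run between 1.12 for Tbx18 and 3.84 for Ptgds, right of the median of tested genes at −0.08 (dashed).

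Promoter sequences were at hand for 5 of the 8 genes, Ptgds, Islr, Aldh1a2, Tbx18 and Fbln1. They are shown, for 4 of them, to set side by side how upstream sequence differs in composition among genes that rose. The Tbx18 window lies wholly in annotated exons and is not shown. Each window is the 250 bases before a RefSeq start site in GRCm38.p6, on the strand of the gene, and bases that GENCODE M21 annotates as exon are not shown. Capitals mark whole matches on either strand to any of 8 short motifs. The core promoter motifs searched were TATAAA, known as the TATA box, and GGGCGG, known as the GC box. Those of factor families were GTAAACA for forkhead factors, GGTGTGA for T-box factors, GGAATG for TEAD factors, TGANTCA for AP-1, CAGACA for SMAD proteins, and AGGTCA for nuclear receptors. The runs are chr2:25469843-25469999 (minus) for Ptgds, chr9:58158555-58158804 (minus) for Islr, chr15:85205699-85205948 (plus) for the upstream of 2 Fbln1 start sites and chr9:71215539-71215788 (plus) for Aldh1a2. The Islr and Ptgds runs each lie in an intron of a longer annotated transcript of the same gene.
Ptgds: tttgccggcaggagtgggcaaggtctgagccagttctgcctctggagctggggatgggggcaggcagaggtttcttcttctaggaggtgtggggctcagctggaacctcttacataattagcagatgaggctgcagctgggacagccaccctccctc
Islr: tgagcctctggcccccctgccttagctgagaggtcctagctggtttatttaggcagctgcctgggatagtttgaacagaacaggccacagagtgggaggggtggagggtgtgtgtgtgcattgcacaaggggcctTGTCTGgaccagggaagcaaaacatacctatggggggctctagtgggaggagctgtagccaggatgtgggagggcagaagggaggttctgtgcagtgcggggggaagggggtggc
Fbln1: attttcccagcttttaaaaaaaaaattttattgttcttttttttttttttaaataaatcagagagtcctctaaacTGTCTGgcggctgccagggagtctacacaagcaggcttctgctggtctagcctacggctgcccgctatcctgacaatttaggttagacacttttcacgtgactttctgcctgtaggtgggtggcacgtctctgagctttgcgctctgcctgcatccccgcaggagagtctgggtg
Aldh1a2: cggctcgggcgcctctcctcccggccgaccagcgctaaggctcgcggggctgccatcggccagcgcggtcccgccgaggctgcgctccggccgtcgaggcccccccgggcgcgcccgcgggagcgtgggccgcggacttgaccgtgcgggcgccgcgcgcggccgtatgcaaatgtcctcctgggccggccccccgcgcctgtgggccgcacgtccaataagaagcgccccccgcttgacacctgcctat

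The Islr run held SMAD letters starting 115 bases before its start site, and the Fbln1 run held them 175 bases before its own. SMAD letters were thus found in 2 of the 5 genes, and in 17.1% of 32851 RefSeq windows of the same length. Here and below members were counted by gene and the background by window, so the units differ. Fbln1 has 2 windows, which overlap and share this match. In the part of the Ptgds window not shown, 93 bases long, T-box letters started 95 bases and AP-1 letters 35 bases before the start site, the first of these reaching 2 bases into the run shown, where they are in lower case. T-box letters were found in 3.33% and AP-1 letters in 6.75% of all windows. The window of the other Fbln1 start site also held GC box letters, which 32.7% of all windows have. The Aldh1a2 run held none of the 8 motifs and had the most CpG pairs, 40 in 250 bases at 77.6% G and C, against 2 at 58.4% in the whole Ptgds window and a median of 6 at 52.4% over all windows of 250 bases. None of the 5 genes had the TATA box, forkhead, TEAD or nuclear receptor letters, which 12.4%, 3.17%, 12.6% and 14.0% of windows hold. The E-box letters CANNTG, searched as well but left in lower case, were in all 5 genes and in 66.2% of windows. A match describes the letters and is not a binding site.

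The make-up of the summed level differed between the groups. Dcn took 26.7% of the summed FPKM of the 8 genes in the Tgfbr2-deficient group and 20.8% in the control group. Ptgds took 23.6% in the Tgfbr2-deficient group and 8.23% in the control group, a gain of 15.4 percentage points. Crabp2 took 8.82% in the Tgfbr2-deficient group and 24.2% in the control group, and was sixth of the 8 genes in level in the Tgfbr2-deficient group and first in the control group. Lum, Aldh1a2 and Tbx18 differed by less than 2 points between the groups. With 1 value per group these shares have no error, and neighbours in the order such as Fbln1, Islr and Lum in the control group, at 5.03, 4.98 and 4.93 FPKM, could not be told apart by any spread.

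**Figure D4:**
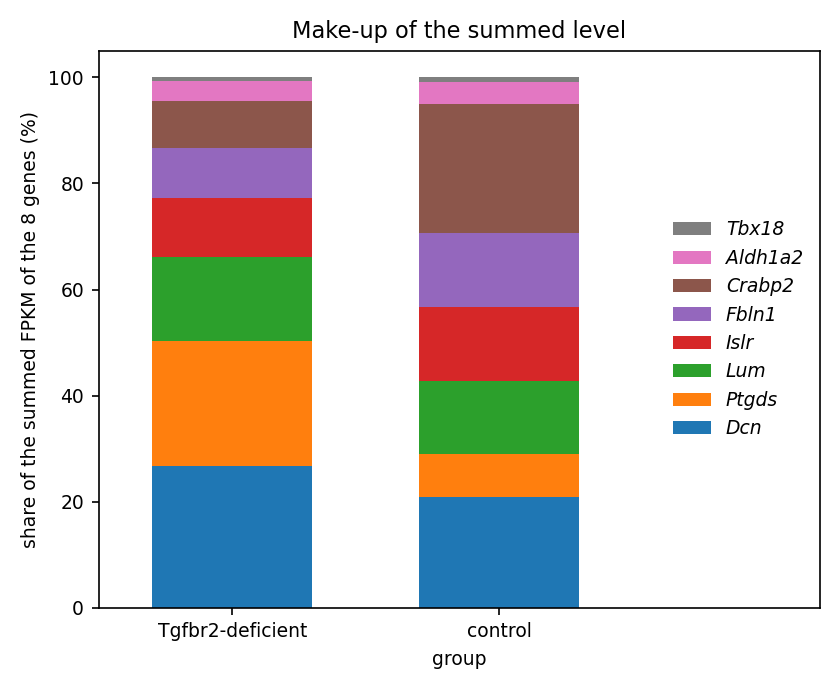
Stacked bars of the share of each gene in the summed FPKM of the 8 genes, in percent, for the Tgfbr2-deficient group (left) and the control group (right). The band of Ptgds is 23.6% and 8.23%, and that of Crabp2 8.82% and 24.2%.

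Set against Col1a1, which encodes a chain of type I collagen, the bulk matrix protein of fibroblasts, the members did not all keep pace. Col1a1 stood at 404 FPKM in the Tgfbr2-deficient group and 44.1 FPKM in the control group. Per 100 FPKM of Col1a1, Dcn was at 15.6 in the Tgfbr2-deficient group and 17.0 in the control group, and Lum at 9.15 and 11.2 in that group order. Ptgds was at 13.8 in the Tgfbr2-deficient group and 6.69 in the control group, the 1 gene of the 8 with a higher ratio. The other 7 had a lower one, the widest gap being that of Crabp2, at 5.14 in the Tgfbr2-deficient group and 19.7 in the control group. The direction for Dcn depends on the collagen chosen. Col1a1 had the largest log2(FPKM + 1) fold of the pan-fibroblast genes, 3.17, but not the largest plain ratio. It rose 9.16-fold, while Col6a1, a type VI chain, rose 9.58-fold. Col1a2, the other type I chain, rose 8.03-fold, and Col3a1 rose 7.85-fold. Dcn, at 8.42-fold, rose more than Col1a2 and Col3a1, while Lum, at 7.49-fold, rose less. Against the median of 20 tested pan-fibroblast genes, a fold of 2.28 on the log2(FPKM + 1) scale, Ptgds, Dcn and Lum lay above and the other 5 below, and the same 3 lay above it on the deposited log2 scale. Of those 20 genes 17 rose and 0 fell, where 23.9% of all tested genes were called higher. At 1 FPKM in both groups 15 of 17 rose. Thy1, on the list but not tested, was at 0.310 FPKM in the Tgfbr2-deficient group and 0 in the control group. Gsn, which encodes the actin-severing protein gelsolin, did not pass, at 79.5 FPKM in the Tgfbr2-deficient group and 90.9 FPKM in the control group. No test of these ratios was possible with 1 value per group.

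Other genes of the meninges rose with the 8. All 20 tested transcription factors of meningeal and cranial mesenchyme were higher, where 23.9% of all tested genes were called higher. Of the 20, 8 had passed the minimum through the Tgfbr2-deficient group alone. The 12 at 1 FPKM in both groups were all called higher, a minimum for which the share over all genes is not given here. Foxc1, the forkhead factor that meningeal development needs, was at 12.2 FPKM in the Tgfbr2-deficient group and 1.87 FPKM in the control group, Prrx1, a homeobox factor of cranial mesenchyme, at 7.14 and 1.11 FPKM, and Foxc2, a relative of Foxc1, at 7.74 and 1.37 FPKM, in that group order, each with q = 0.00029 in the authors' deposited table.

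Most tested genes of each meningeal layer were higher, where 23.9% of all tested genes were called higher and 14.7% lower. Of 11 tested arachnoid and barrier-layer genes all rose, 8 having passed the minimum through the Tgfbr2-deficient group alone. Slc6a13, a GABA and taurine transporter, was at 8.78 FPKM in the Tgfbr2-deficient group and 0.936 FPKM in the control group, Angptl2, a secreted angiopoietin-like protein, at 9.25 and 1.66 FPKM, and Slc22a8, an organic anion transporter, at 3.79 and 0.268 FPKM, in that group order, each with q = 0.00029 in the authors' deposited table. Of 9 tested pial genes 8 rose and 1 fell, 4 having passed through the Tgfbr2-deficient group alone. The chemokine gene Cxcl12 was at 31.5 FPKM in the Tgfbr2-deficient group and 6.78 FPKM in the control group, Vtn (vitronectin, also a pericyte gene) at 27.2 and 3.90 FPKM, and Fn1 (fibronectin) at 63.3 and 15.8 FPKM, in that group order, each with q = 0.00029 in the authors' deposited table. S100a6, a calcium-binding protein that myeloid cells also make, fell to 8.47 FPKM in the Tgfbr2-deficient group, against 15.3 FPKM in the control group, at q = 0.0368 in the authors' deposited table. Of 9 tested dural and skull-side genes 6 rose and 0 fell, 5 of the 9 having passed through the Tgfbr2-deficient group alone. Smoc2, a matricellular protein, was at 23.0 FPKM in the Tgfbr2-deficient group and 2.74 FPKM in the control group, Postn (periostin) at 37.1 and 5.51 FPKM, and Kcnj8, a potassium channel gene that pericytes also express, at 7.19 and 0.703 FPKM, in that group order, each with q = 0.00029 in the authors' deposited table. Fxyd5, an ion pump regulator, did not pass, at 54.3 FPKM in the Tgfbr2-deficient group and 72.0 FPKM in the control group. The median folds were 1.26 for pial, 1.58 for arachnoid and 1.502 for dural genes on the log2(FPKM + 1) scale. In the log2 folds of the authors' deposited table, with nothing added, they were 2.22 for pial, 2.99 for arachnoid and 2.70 for dural genes, and differences between the layers were not tested.

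**Figure D5:**
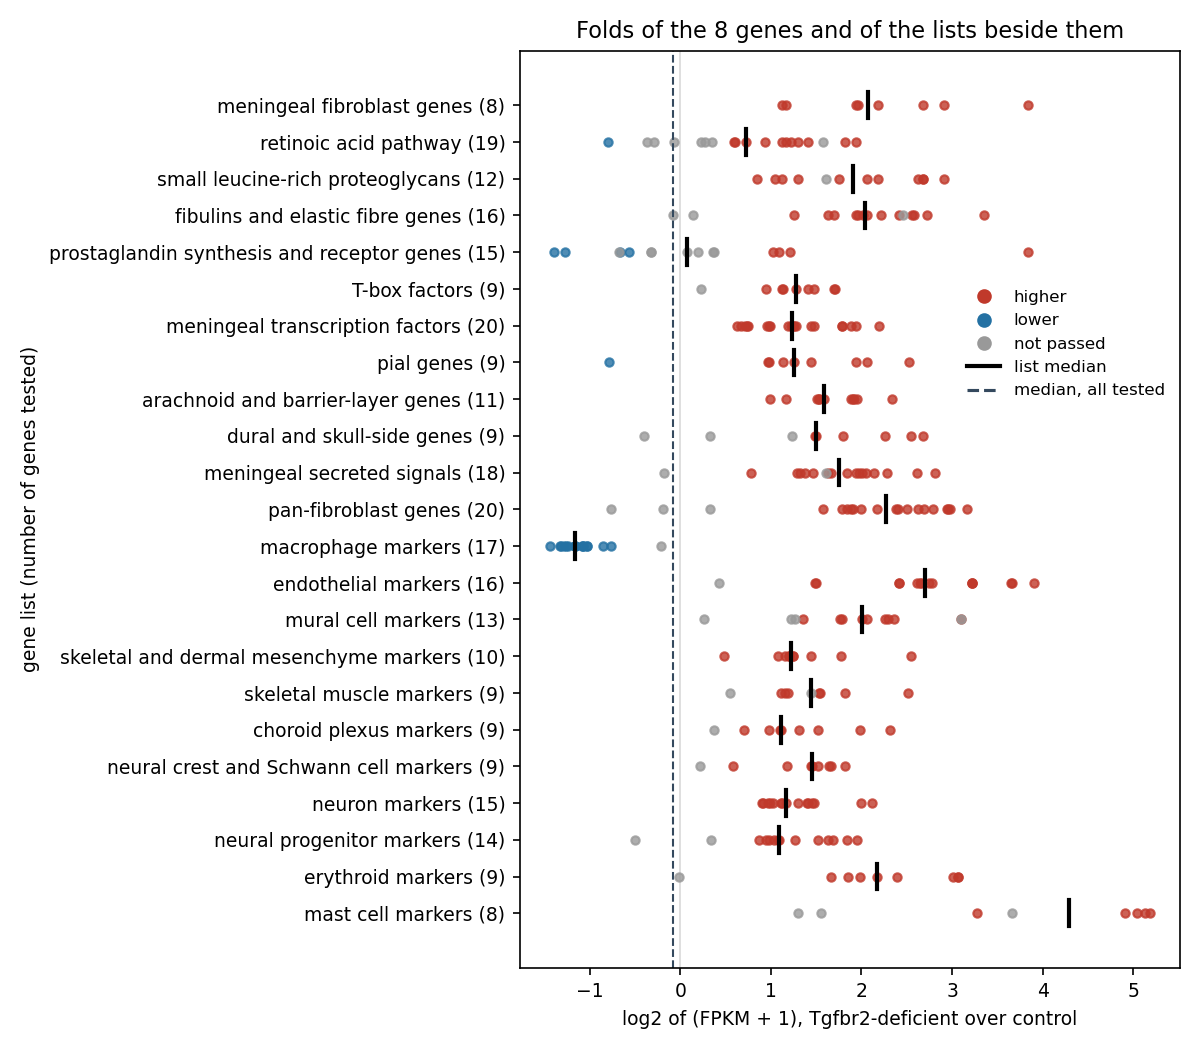
Log2 fold of (FPKM + 1), Tgfbr2-deficient over control, for each tested gene of the 8 members and of 22 other lists, coloured by the deposited call, with the list medians as black bars and the median of all tested genes dashed. The bar of the 8 genes is at 2.07, that of pan-fibroblast genes at 2.28, that of endothelial markers at 2.70 and that of macrophage markers at −1.16.

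The rise of the 8 genes stood among rises of markers of other cell types, where 23.9% of all tested genes were called higher. Endothelial markers had a median fold of 2.70 and mural markers of 2.001 on the log2(FPKM + 1) scale, and by summed FPKM the ratios were 5.05 for endothelial, 6.27 for mural, 5.24 for pan-fibroblast and 6.56 for the 8 genes. Neuron markers had a median fold of 1.17, with 15 of 15 higher, and erythroid markers of 2.17, with 8 of 9 higher. Neural progenitor markers had a median fold of 1.09, with 12 of 14 higher, and neural crest and Schwann cell markers of 1.45, with 8 of 9 higher, and 0 were lower in any of these 4 lists. At 1 FPKM in both groups 7 of 8 erythroid, 9 of 11 neural progenitor and 3 of 4 neural crest and Schwann cell markers were higher. The part of macrophage RNA in these values was not tested, and FPKM carries no absolute amount, so a lower macrophage share and more RNA of the other cells cannot be told apart. For each member the gene with the nearest pair of group values was taken, by Euclidean distance on log2(FPKM + 1) over 2 group values. Nearness over only 2 values does not show a shared cell type. Nearest to Lum was Pecam1, an adhesion molecule of endothelium, at 35.8 FPKM in the Tgfbr2-deficient group and 4.81 FPKM in the control group, a distance of 0.053. Nearest to Dcn was Col18a1, a basement membrane collagen gene, at 59.3 FPKM in the Tgfbr2-deficient group and 6.56 FPKM in the control group, a distance of 0.19. Nearest to Ptgds was Sparcl1, a matricellular gene of vessels and glia, at 59.1 FPKM in the Tgfbr2-deficient group and 3.17 FPKM in the control group, a distance of 0.12. For Islr, Fbln1, Aldh1a2, Crabp2 and Tbx18 the nearest genes were Nckap1, Reep1, Sema6a, Abcb10 and Nckap5, at distances between 0.011 and 0.073.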

How the data were processed

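RNA of 7 libraries, 4 Tgfbr2-deficient and 3 control, grouped by the genotype label, was read as single-end reads of 50 bases from amplified poly(A) complementary DNA. Per the labels' protocols the kits were SMART-Seq v4 and Nextera XT. Per the submitters' processing notes reads went through TopHat2 and Cufflinks 2.2.1 with Cuffdiff, on mm10. The sources used here do not give the annotation, normalization or test options. Per the file headers, the deposited FPKM values are 1 per gene and group, with libraries combined by the authors' Cuffdiff. The authors' log2 fold has the Tgfbr2-deficient FPKM over that of the control. The deposited p-value and q-value are those of the authors' Cuffdiff test, and its deposited test statistic, a score, was not used. Columns of single libraries numbered 0.

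Genes with test status OK and at least 1 FPKM in 1 group were counted at q under 0.05, and folds were computed as log2 of (FPKM + 1) with Python 3.11.15 and pandas 2.3.3. The counting and adjustment code was tested on simulated data. Deposited starts were raised by 1, since they are counted from 0. Promoters are from RefSeq, GRCm38.p6. The members and the 22 lists, 331 of whose 334 symbols matched, were chosen with earlier results of these data known. Named are all members, for each list described up to 3 called genes with the largest fold, the most abundant that did not pass and any gene called against its list, the 8 genes of both proteoglycan clusters and the gene nearest each member. For lists of other cell types mostly counts are given, to keep to the members. A gene that the rule names for the retinoic acid pathway is not reported here.

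Alternatives were other FPKM minimums, q under 0.01, a minimum log2 fold of 1, recomputed q-values, single-symbol rows, other pseudocounts, centring and, chosen after seeing the data, a minimum of 1 FPKM in both groups.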

Additional observations from a re-analysis of the deposited data

How the results depend on the processing

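All 8 members stayed higher and 0 lower under each alternative of filter, threshold and adjustment except 2 that remove Tbx18, a minimum of 5 FPKM in 1 group and of 1 FPKM in both groups, which leave 7. Their log2 folds lay between 1.12 and 4.38 over 40 alternative values, the last for Ptgds with folds centred on ribosomal protein genes, which adds 0.54. None of these settings could turn a member's fold already above 0, since pseudocounts keep its sign and the centrings add to it. Filters and stricter thresholds could only drop members, and recomputed q-values rest on the deposited p-values. These settings bear on size and on the number counted, and do not test the direction. Without Dcn, the most abundant member, the summed level was 172 FPKM in the Tgfbr2-deficient group and 28.4 FPKM in the control group, a ratio of 6.08. At a minimum of 5 FPKM the numbers higher were 7 retinoic acid, 7 proteoglycan, 1 prostaglandin, 3 T-box, 8 meningeal factor, 4 pial, 4 arachnoid, 4 skeletal and dermal, 4 choroid plexus and 2 neural crest genes, and 1643 of all genes. At 1 FPKM in both groups they were 7 retinoic acid, 7 proteoglycan, 2 prostaglandin, 3 T-box, 12 meningeal factor, 4 pial, 3 arachnoid, 3 dural, 8 endothelial, 5 mural, 5 skeletal and dermal, 3 choroid plexus and 3 neural crest genes, and 1939 of all genes. With a log2 fold of at least 1 required, 7 retinoic acid, 12 meningeal factor and 1887 of all genes were higher, and 0 retinoic acid, 0 pial, 2 prostaglandin and 255 of all genes lower. At q under 0.01, 0 pial and 1026 of all genes were lower. These alternatives test fewer genes or ask for more. The counts of all genes at a log2 fold of at least 1 and at q under 0.01 are out of 13356 tested genes. For the 2 FPKM minimums the number of genes left is not given here, so those counts cannot be read as shares. The 23.9% called higher holds only for genes at 1 FPKM in at least 1 group. No list median changed sign in 92 alternative values. With 0.1 FPKM added, 17 of 23 medians moved beyond their list's median absolute deviation. With nothing added 19 did, and with ribosomal centring 18 did, where Dhrs3 became −0.25, S100a6 −0.24, Ptgs1 −0.12 and Tbxas1 −0.02. Of the 48 tested ribosomal protein genes 24 were themselves called lower. With centring on the median of all tested genes, which adds 0.08, 0 of the 23 medians moved. With the 50 bases after the start added, each motif was in as many of the 5 genes as before. No paired analysis was possible because the table gives 1 value per group, and leaving out replicates was not run for the same reason. Precision at low FPKM could not be set without depth.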

Other observations

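Signals that meningeal fibroblasts secrete were mostly higher in the Tgfbr2-deficient group. Of 18 tested genes 16 rose and 0 fell, where 23.9% of all tested genes were called higher. At 1 FPKM in both groups 12 of 13 rose. The median fold of the 18 was 1.75 on the log2(FPKM + 1) scale. Sfrp2, a secreted modulator of WNT signals, stood at 116 FPKM in the Tgfbr2-deficient group and 15.6 FPKM in the control group, Igf2, a fetal growth factor, at 118 and 18.5 FPKM, and Igfbp2, which binds it, at 226 and 45.7 FPKM, in that group order, each with q = 0.00029 in the authors' deposited table. Igf1, which macrophages also make, did not pass, at 34.1 FPKM in the Tgfbr2-deficient group and 38.8 FPKM in the control group.

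Some markers of tissues outside the brain parenchyma were measured in both groups. Myf6 of skeletal muscle and Bglap of bone were listed at 0 in the control group. They were near 0 in the Tgfbr2-deficient group too, at 0.110 and 0.0934 FPKM, and were not tested. Of 9 tested skeletal muscle markers 7 rose and 0 fell, where 23.9% of all tested genes were called higher. Of the 9, 2 had passed the minimum through the Tgfbr2-deficient group alone, and 6 of 7 were higher at 1 FPKM in both groups. Acta1, the skeletal muscle actin, was at 37.8 FPKM in the Tgfbr2-deficient group and 5.78 FPKM in the control group. Of 10 tested skeletal and dermal mesenchyme markers all rose, 5 having passed the minimum through the Tgfbr2-deficient group alone, with Col2a1, the collagen of cartilage, at 30.3 FPKM in the Tgfbr2-deficient group and 8.14 FPKM in the control group. Each of these 2 genes had q = 0.00029 in the authors' deposited table.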
